A study of Mus musculus with 10 samples.

Results

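The genes of MHC class II presentation were described in the livers of Balb/c mice treated with CCl4, a hepatotoxin that scars the liver on repeated dosing, and of mice treated with oil. The set held 10 genes: the class II chains H2-Aa, H2-Ab1 and H2-Eb1, the invariant chain Cd74, the peptide editors H2-DMa, H2-DMb1, H2-DMb2, H2-Oa and H2-Ob, and the transactivator Ciita. A gene was taken as measured where the array annotation gave a probe set to that gene symbol alone, and 5 of the 10 genes were measured in this sense, among 14860 genes in all. These were H2-Aa, H2-Ab1, Cd74, H2-DMa and H2-Oa, each with 1 probe set. H2-Eb1, H2-DMb1, H2-DMb2 and Ciita shared their probe sets with another symbol, and no probe set in the annotation used here carried H2-Ob.

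Male Balb/c mice aged 8 weeks received CCl4 for 6 weeks (5 livers) or olive oil alone for 6 weeks (5 livers), and the labels name no genetic change in either group. Total RNA of whole liver was hybridised to Affymetrix whole-transcript arrays, 1 array for each liver. The labels call each array a biological replicate. CCl4 injury is a toxic model of fibrosis in 1 inbred strain, and in whole tissue a change in the number of cells of a type and a change in RNA per cell cannot be told apart.

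Class II molecules are pairs of an alpha and a beta chain that carry peptides of ingested proteins to the surface of antigen-presenting cells, where CD4+ T cells read them. In the mouse the I-A molecule is made of H2-Aa and H2-Ab1, and the I-E molecule of H2-Ea and H2-Eb1. Cd74 fills the groove of a new class II molecule and guides it to endosomes, where proteases trim it away, H2-DM helps peptides to exchange and H2-O restrains H2-DM. Ciita is the master regulator of these genes and acts through factors held at the conserved X and Y boxes of their promoters. In liver, class II is known from dendritic cells, B cells and macrophages, among them the resident Kupffer cells.

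The promoters of H2-Aa and H2-Oa are shown because both hold a full Y box, one for a gene with a difference of 1.20 between the groups and one for a gene with a difference of -0.03 on the log2 scale, as described below. They are RefSeq sequences of assembly GRCm38.p6, which is of another strain than Balb/c, and run from 250 bases before to 50 bases after the annotated start. The H2-Aa promoter lies at chr17:34287774-34288073 on the minus strand and the H2-Oa promoter at chr17:34092129-34092428 on the plus strand. Capitals mark matches to the X box core (AGNNACNGA), the Y box (CTGATTGG) and the X2 box (TGACGTCA), searched on both strands.
H2-Aa: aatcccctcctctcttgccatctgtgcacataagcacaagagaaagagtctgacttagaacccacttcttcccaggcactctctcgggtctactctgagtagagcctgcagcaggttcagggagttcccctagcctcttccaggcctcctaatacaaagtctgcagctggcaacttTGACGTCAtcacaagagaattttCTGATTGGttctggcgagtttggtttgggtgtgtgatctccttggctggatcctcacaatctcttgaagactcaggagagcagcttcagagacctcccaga
H2-Oa: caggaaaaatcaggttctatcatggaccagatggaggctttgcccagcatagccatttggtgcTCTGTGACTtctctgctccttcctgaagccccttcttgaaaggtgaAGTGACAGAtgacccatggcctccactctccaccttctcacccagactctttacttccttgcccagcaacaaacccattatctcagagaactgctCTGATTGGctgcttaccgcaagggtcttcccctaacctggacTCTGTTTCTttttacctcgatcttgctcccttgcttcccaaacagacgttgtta
Counted from the start, the Y box of H2-Aa began at position -51 and its X2 box at -74, and the Y box of H2-Oa began at -46. The X box core matched 3 times in H2-Oa and 0 times in H2-Aa. The H2-Oa matches began at -187 and -4 on the minus strand and at -141 on the plus strand. The lack of a match to these letters does not show that H2-Aa lacks an X box. Nor do the matches show that H2-Oa holds one. H2-Eb1, whose probe set is shared with H2-Eb2, also held a full Y box, at -62, and an X box core at -92. Of 32851 promoters of the same length, 4.10% held the Y box, 17.7% the X box core and 1.79% the X2 box, which was added after the H2-Aa sequence had been read. A promoter at chr17:34122582-34122881 of H2-DMa held none of these motifs, and the second, at chr17:34125268-34125567, held only the ATTGG core of the Y box, which 37.4% of all promoters hold. These matches are descriptions of letters, and binding was not measured.

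Albumin (Alb), a defining hepatocyte gene, averaged 13.0 in CCl4 livers and 13.1 in oil livers. Array medians lay between 2.54 and 2.66, and pairs of arrays correlated at 0.959 to 0.990 over all probe sets. Every value below is a deposited log2 value, and a difference is CCl4 minus oil on that scale. Which of a pair of probe sets is brighter says nothing of which gene has more RNA.

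H2-Aa, H2-Ab1 and Cd74 had higher means in CCl4 livers, by 1.5 to 2.3-fold, whereas H2-DMa and H2-Oa differed by 0.14 and -0.03. None of the 5 genes passed the test across all probe sets: limma called 0 of 5 at an adjusted p under 0.05, against 0.63% of all 23332 probe sets called higher in CCl4 and 0.09% called lower. At an unadjusted p under 0.05, 3 of the 5 were higher, against 7.03% of all probe sets. In 2 of the 5, H2-Aa and Cd74, every CCl4 liver lay above every oil liver, which held for 2.73% of all probe sets. The methods' t-test, applied with a fold above 1.6 and an unadjusted p under 0.05, took the same 2 genes and 2.34% of all probe sets, and after Benjamini-Hochberg adjustment it called 0 of the 5. The median difference of the 5 genes was 0.62, beside 0.01 over all probe sets.

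**Figure D1:**
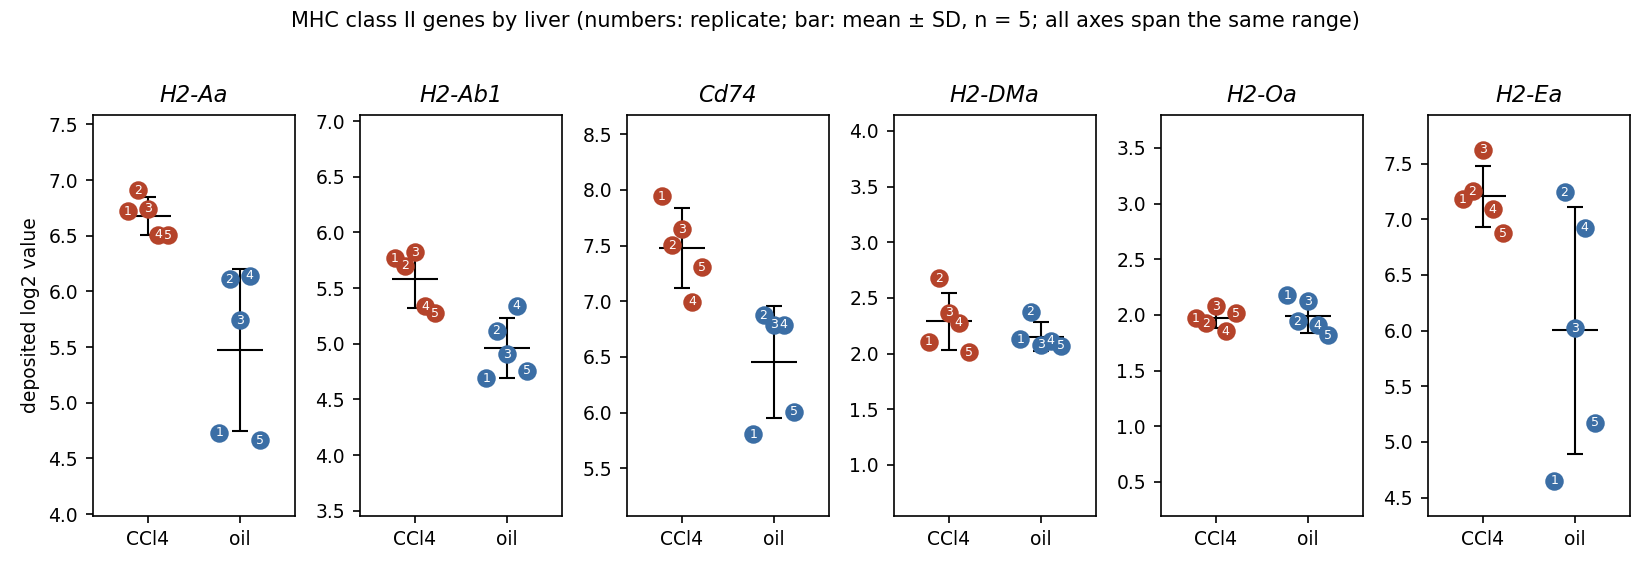
Deposited log2 values (vertical axis) of the 5 measured class II genes and of H2-Ea in 5 CCl4 livers (red) and 5 oil livers (blue), with the replicate number in each point and a bar for the mean ± SD. All CCl4 livers lie above all oil livers for H2-Aa and Cd74, and oil livers 1 and 5 are the lowest points for H2-Aa, Cd74 and H2-Ea.

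H2-Aa encodes the alpha chain of I-A. Its values were 6.72, 6.91, 6.74, 6.51 and 6.50 in CCl4 livers, against 4.73, 6.11, 5.74, 6.14 and 4.66 in oil livers. The CCl4 livers lay close together, whereas the oil livers split widely, with livers 1 and 5 far below the others. The means were 6.68 ± 0.17 in CCl4 livers and 5.48 ± 0.73 in oil livers (SD, n = 5 each), a difference of 1.20 (SE 0.30, 95% confidence interval 0.54 to 1.87) or 2.30-fold. The limma adjusted p was 0.115, and the two-sided exact permutation p, which is not adjusted over genes, was 0.00794, the smallest that 5 against 5 livers allow. The SD of the oil livers was 4.22 times that of the CCl4 livers, a gap that the limma fit, with 1 common spread, does not model.

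H2-Ab1 encodes the beta chain that pairs with H2-Aa. It stood at 5.77, 5.70, 5.82, 5.34 and 5.27 in CCl4 livers, against 4.69, 5.12, 4.90, 5.34 and 4.76 in oil livers. CCl4 livers 1, 2 and 3 were above all oil livers, while CCl4 livers 4 and 5 were overlapped by oil liver 4. The difference was 0.62 (SE 0.16, 95% confidence interval 0.27 to 0.96), 1.53-fold, with a limma adjusted p of 0.119 and a two-sided exact permutation p of 0.0238.

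Within a liver, H2-Aa minus H2-Ab1 was 0.95, 1.21, 0.92, 1.17 and 1.23 in CCl4 livers, against 0.04, 0.99, 0.84, 0.80 and -0.10 in oil livers. The gap was thus smaller in oil livers 1 and 5 than in any other liver. Its size and its zero have no meaning, since the probe sets differ, and only its variation between livers can be read.

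H2-Ea encodes the alpha chain of I-E and belongs to the wider class II list rather than to the 10 genes. Its values were 7.18, 7.25, 7.62, 7.09 and 6.87 in CCl4 livers, against 4.65, 7.24, 6.02, 6.92 and 5.17 in oil livers. The groups overlapped through oil livers 2 and 4, and oil livers 1 and 5 were again the lowest. The difference of 1.20 (SE 0.45) was as large as that of H2-Aa but had a wider error, with a limma adjusted p of 0.326 and a two-sided exact permutation p of 0.0635.

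Cd74, the invariant chain, had values of 7.94, 7.50, 7.65, 6.99 and 7.31 in CCl4 livers, against 5.81, 6.87, 6.79, 6.79 and 6.01 in oil livers. No oil liver reached the lowest CCl4 liver, the gap between the groups was narrow at replicate 4 of CCl4 and replicate 2 of oil, and oil livers 1 and 5 were the lowest. The means were 7.48 ± 0.36 in CCl4 livers and 6.45 ± 0.50 in oil livers (SD, n = 5 each). The difference of 1.03 (SE 0.25, 95% confidence interval 0.47 to 1.58) was 2.04-fold, with a limma adjusted p of 0.108 and a two-sided exact permutation p of 0.00794.

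H2-DMa, a chain of the H2-DM peptide editor, was dim, at 2.11, 2.68, 2.37, 2.28 and 2.01 in CCl4 livers, against 2.13, 2.38, 2.08, 2.12 and 2.07 in oil livers. The groups overlapped, and the difference was 0.14 (95% confidence interval -0.15 to 0.42, limma adjusted p 0.782). H2-Oa, a chain of the H2-DM inhibitor H2-O, gave 1.97, 1.93, 2.08, 1.85 and 2.02 in CCl4 livers, against 2.18, 1.94, 2.12, 1.91 and 1.82 in oil livers. Its difference was -0.03 (95% confidence interval -0.22 to 0.17, limma adjusted p 0.963). The oil means of both genes lay below the medians of the arrays, and with no detection call used here it is unknown whether either stood above background.

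**Figure D2:**
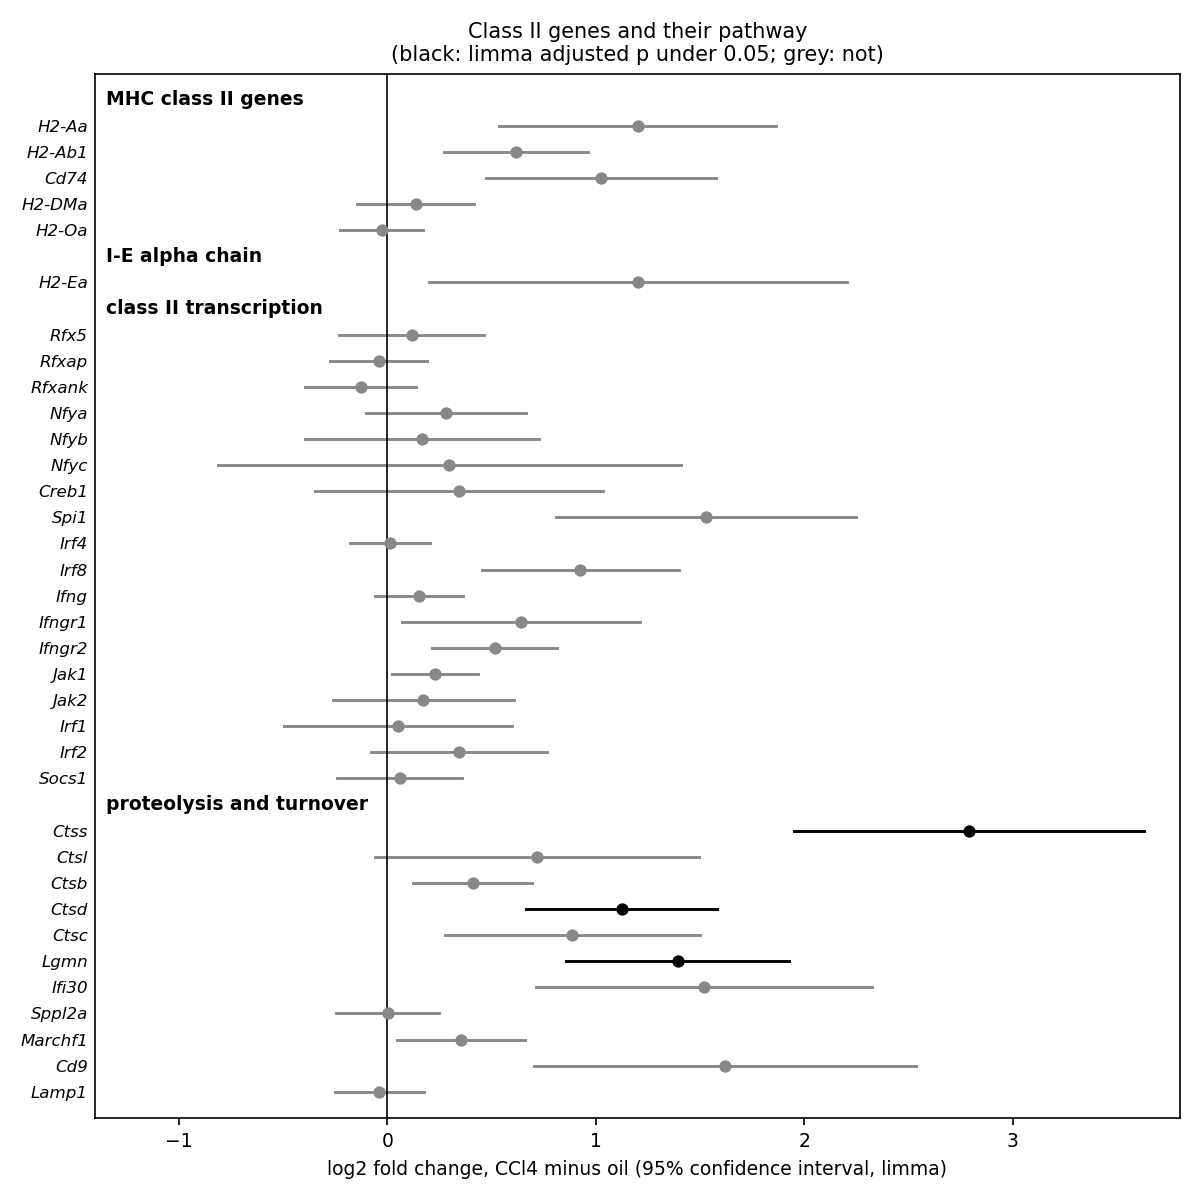
Difference between CCl4 and oil livers on the log2 scale (horizontal axis, point) with its 95% confidence interval (line) for the class II genes, H2-Ea, the class II transcription list and the proteolysis list, in black where the limma adjusted p was under 0.05 and in grey otherwise. The intervals of H2-Aa, H2-Ab1 and Cd74 lie above 0 and those of H2-DMa and H2-Oa span 0, and Ctss has the largest difference drawn, at 2.79.

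Of the proteases that trim Cd74 and antigen, Ctss, Lgmn and Ctsd rose in CCl4 livers. Of 11 measured genes of 12 listed for invariant chain and antigen proteolysis and class II turnover, 3 passed at a limma adjusted p under 0.05, all higher (against 0.63% of all probe sets), and 8 were higher at an unadjusted p under 0.05 (against 7.03% of all probe sets). The median difference was 0.89. Ctss, cathepsin S, which makes the last cuts in the invariant chain, had 9.35, 9.39, 8.30, 9.04 and 7.44 in CCl4 livers, against 5.53, 5.94, 5.97, 6.64 and 5.50 in oil livers, a rise of 2.79 (SE 0.38, adjusted p 0.0140). Even the lowest CCl4 liver, number 5, exceeded the highest oil liver. Lgmn, the asparaginyl endopeptidase of endosomes, rose by 1.39 (SE 0.24, adjusted p 0.0338), and Ctsd, the aspartic protease cathepsin D, by 1.12 (SE 0.21, adjusted p 0.0420). Ifi30, the thiol reductase of the same compartment, differed by 1.52 (adjusted p 0.103), and Cd9, a tetraspanin, by 1.62 (adjusted p 0.121), without passing, and both were picked for mention after their values were seen. These proteases also serve general lysosomal breakdown. The calls were not stable with 1 liver left out. Ctss missed the threshold without oil liver 3 (limma adjusted p 0.0505) or oil liver 5 (0.0527). Lgmn missed it without CCl4 liver 1 or 4 or any oil liver (up to 0.111), and Ctsd without any liver but CCl4 liver 5 (up to 0.123). Ifi30 passed without CCl4 liver 5 (0.0133). The differences stayed at 2.62 to 3.11 for Ctss, 1.21 to 1.57 for Lgmn and 1.02 to 1.32 for Ctsd. Why the calls changed was not tested.

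Of the class II transcription list, 18 of 19 genes were measured and limma called 0, with 5 higher (against 7.03% of all probe sets) and 0 lower at an unadjusted p under 0.05 and a median of 0.20. Spi1, the macrophage and B cell factor PU.1, had 5.89, 6.06, 5.11, 5.55 and 4.25 in CCl4 livers, against 3.25, 3.81, 4.19, 4.02 and 3.95 in oil livers (difference 1.53, SE 0.32, limma adjusted p 0.0703). The groups did not overlap, and CCl4 liver 5 came nearest to the oil livers; without it Spi1 passed (adjusted p 0.0081), as did Irf8 (0.0325). Irf8 differed by 0.92 (adjusted p 0.0923), and the interferon gamma receptor chains Ifngr2 by 0.52 (adjusted p 0.130) and Ifngr1 by 0.64 (adjusted p 0.369).

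Limma called 1 of 8 co-stimulatory genes, against 0.63% of all probe sets called higher. It was also the only 1 of the 8 higher at an unadjusted p under 0.05, against 7.03% of all probe sets. This was Cd83, a surface protein of activated antigen-presenting cells that stabilises class II. It had 3.29, 2.96, 2.87, 3.36 and 2.56 in CCl4 livers, against 2.17, 2.23, 2.35, 2.22 and 2.14 in oil livers. The rise was 0.79 (SE 0.14, limma adjusted p 0.0420). Every CCl4 liver lay above every oil liver, as for 2.73% of all probe sets. All oil values of Cd83 were below the array medians, and without detection calls it is unknown whether they stood above background. The call of Cd83 was lost without any liver but CCl4 liver 5, at a limma adjusted p of up to 0.130. The median of the 8 was 0.14.

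Interferon gamma targets and class I genes showed no call. Of 7 measured of 11 interferon gamma targets, limma called 0 and 1 was higher at an unadjusted p under 0.05, against 7.03% of all probe sets. This was Gbp2, a guanylate-binding protein (difference 0.64, adjusted p 0.278). The median of the 7 was 0.09. The chemokine Cxcl9 had 3.99, 5.20, 4.19, 3.32 and 4.13 in CCl4 livers, against 3.74, 6.30, 4.74, 6.04 and 4.15 in oil livers (difference -0.83, SE 0.52, adjusted p 0.620). Among the oil livers it ranked 1, 5, 3, 4, 2 from low to high, the same order as H2-Ea, a match picked out after the values were seen. Of 12 measured of 17 class I presentation genes, limma called 0 and 0 had an unadjusted p under 0.05, with a median of -0.20. Calr, the chaperone calreticulin, had the smallest p (difference -0.35, adjusted p 0.461).

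Markers of cells that can carry class II were set beside these values. Of 12 measured of 14 monocyte and macrophage markers, 4 rose at a limma adjusted p under 0.05 (against 0.63% of all probe sets) and 11 were higher at an unadjusted p under 0.05 (against 7.03% of all probe sets), with a median of 1.85. The 4 that passed were Gpnmb (5.99, adjusted p 0.00134), Lgals3 (3.89, adjusted p 0.0266), the lysosomal glycoprotein Cd68 (2.31, adjusted p 0.0276) and the lipid receptor Trem2 (2.58, adjusted p 0.0338). The summed linear level of the list was 441 to 2527 in CCl4 livers, against 188 to 272 in oil livers. The brightest genes in CCl4 livers, Gpnmb (mean 8.51), Lgals3 (7.90) and Cd68 (7.80), weighed most in the CCl4 sums and are among those called. Differences within the list ran from 0.40 (Mertk) to 5.99. Gpnmb kept its call without any one liver, whereas Lgals3, Cd68 and Trem2 lost theirs without CCl4 liver 1 or 4 or any oil liver, and Trem2 also without CCl4 liver 2 (limma adjusted p up to 0.0917, 0.0942 and 0.102). The part of these cells in the class II difference was not tested.

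Other marker lists of antigen-presenting cells had no call by limma. Their counts of higher genes at an unadjusted p under 0.05, 1 of 10, 1 of 10 and 1 of 9, were near the 7.03% of all probe sets. Of 10 measured of 12 dendritic cell markers, 1 was higher at an unadjusted p under 0.05, Cd209a (0.39, adjusted p 0.112). Summed levels were 123 to 300 in CCl4 livers and 153 to 198 in oil livers. Most of each sum came from 1 gene, Bst2, which averaged 7.44 in CCl4 livers and 7.16 in oil livers. Of 10 measured of 12 B and plasma cell markers, 1 was higher in the same way, Cd22 (0.38, adjusted p 0.0666). Sums were 269 to 463 in CCl4 livers and 250 to 333 in oil livers. Here too 1 gene made up most of each sum, Sdc1, at a mean of 8.27 in CCl4 livers and 8.01 in oil livers. The B cell marker Ms4a1 stood at 1.50 ± 0.13 in CCl4 livers and 1.41 ± 0.03 in oil livers (SD, n = 5 each), below the array medians. Of 9 Kupffer cell markers, 1 was higher at an unadjusted p under 0.05 (Folr2, 0.47). Lower at the same threshold were 2, Timd4 (-0.45) and the complement gene C6, a larger share than 996 of all 23332 probe sets. C6 passed without CCl4 liver 5, at a limma adjusted p of 0.0353. The Kupffer sums were 959 to 1330 in CCl4 livers and 1165 to 1486 in oil livers. The brightest genes in oil livers, C6 (mean 8.84) and Slc40a1 (8.60), weighed most in the oil sums. The sums thus do not stand for the list as a whole. Differences within the list ran from -0.998 (C6) to 0.67 (Cd5l), with a median of -0.04, and 4 of the 9 were positive. Limma also called 0 of 9 T and NK cell markers, 0 of 7 sinusoidal endothelial markers and 0 of 4 hepatocyte markers, with 0, 1 (Lyve1, 2.14, adjusted p 0.213) and 0 higher at an unadjusted p under 0.05. With no detection call used here, it is unknown whether the dimmer markers stood above background. The parts of these cells in the class II difference were not tested.

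**Figure D3:**
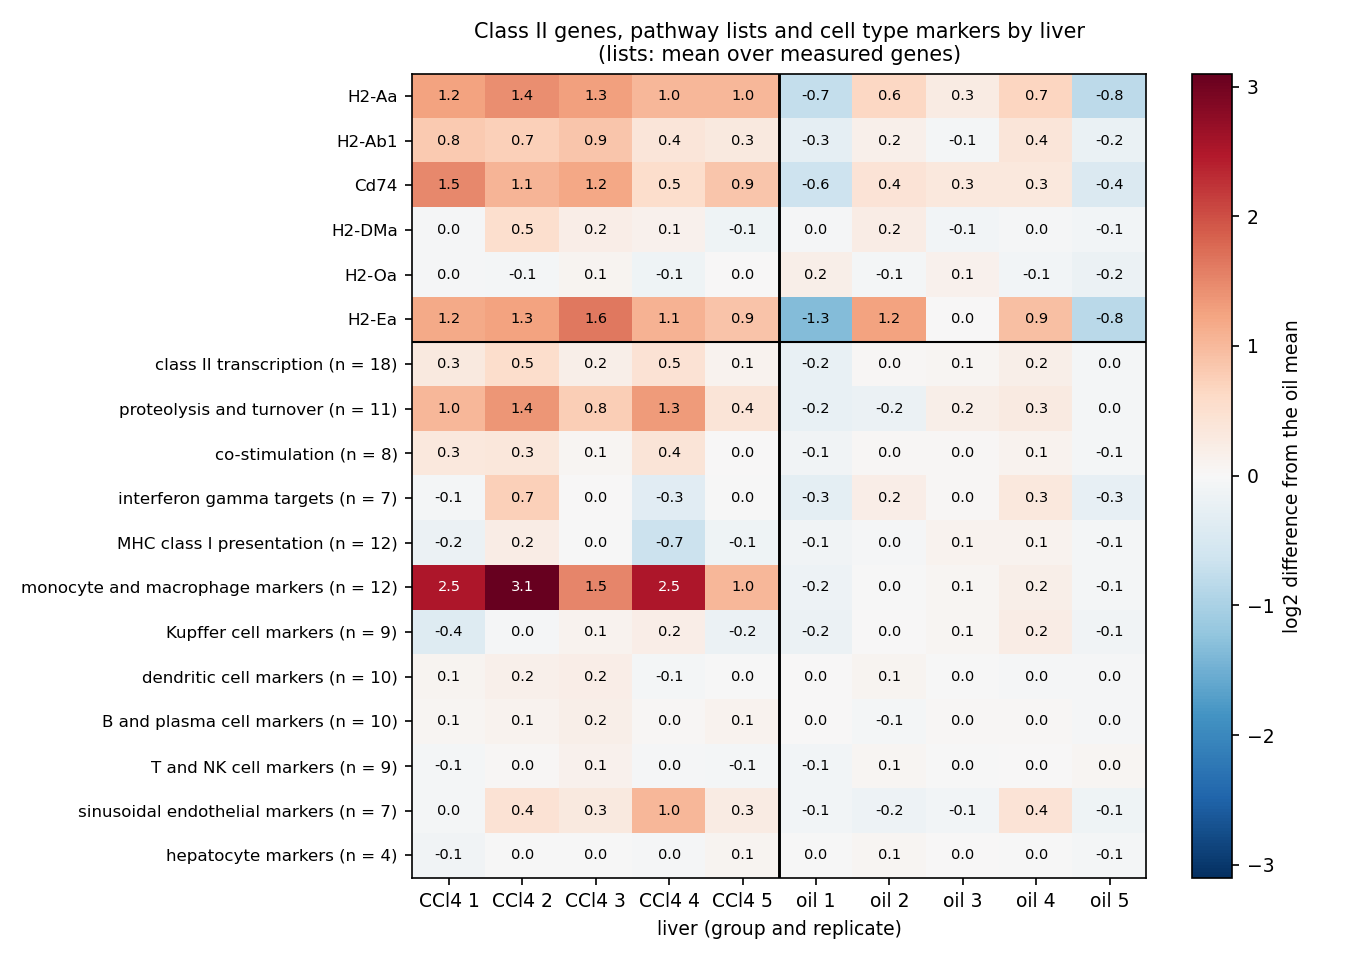
Log2 difference from the oil mean (colour) in each liver (columns, CCl4 left of oil) for the class II genes and H2-Ea, with the mean of each pathway and marker list below. Oil livers 1 and 5 are the lowest columns for H2-Aa, Cd74 and H2-Ea, and the macrophage marker row runs from 1.03 to 3.08 in CCl4 livers.

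H2-Aa, H2-Ab1 and Cd74 varied together from liver to liver. With each group's mean subtracted, H2-Aa and Cd74 correlated at r = 0.85 over the 10 arrays, H2-Ab1 and Cd74 at 0.81 and H2-Aa and H2-Ab1 at 0.77. The points share arrays and their processing, so that these are descriptions, and pairs with H2-DMa or H2-Oa lay between -0.14 and 0.40. The mean of the 5 genes, relative to its oil mean, was 0.69, 0.74, 0.72, 0.39 and 0.41 in CCl4 livers, against -0.30, 0.28, 0.12, 0.25 and -0.34 in oil livers. CCl4 livers 1, 2 and 3 were high and 4 and 5 lower.

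The macrophage markers gave another order. Their mean was 2.50, 3.08, 1.51, 2.50 and 1.03 in CCl4 livers, against -0.15, -0.01, 0.05, 0.18 and -0.07 in oil livers. CCl4 liver 4 was thus high for macrophage markers and, at 0.39 beside 0.41 in liver 5, among the lower CCl4 livers in the class II mean. Of the genes with higher CCl4 means, Cd74 was lowest in CCl4 liver 4. H2-Aa and H2-Ab1 were lowest in CCl4 liver 5, which was also lowest for macrophage markers. Their gaps between CCl4 livers 4 and 5 were small (6.51 and 6.50 for H2-Aa, 5.34 and 5.27 for H2-Ab1), so that little can be read from this order. The oil livers, apart in class II, lay within a narrow range of macrophage markers. The mean of the interferon gamma targets was -0.06, 0.73, 0.02, -0.34 and -0.02 in CCl4 livers, against -0.30, 0.20, 0.03, 0.33 and -0.26 in oil livers. It was lowest among the oil livers in 1 and 5, as class II was. The same held for the macrophage, class II transcription, co-stimulation, class I and Kupffer lists. This trait is thus not particular to the interferon gamma targets.

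**Figure D4:**
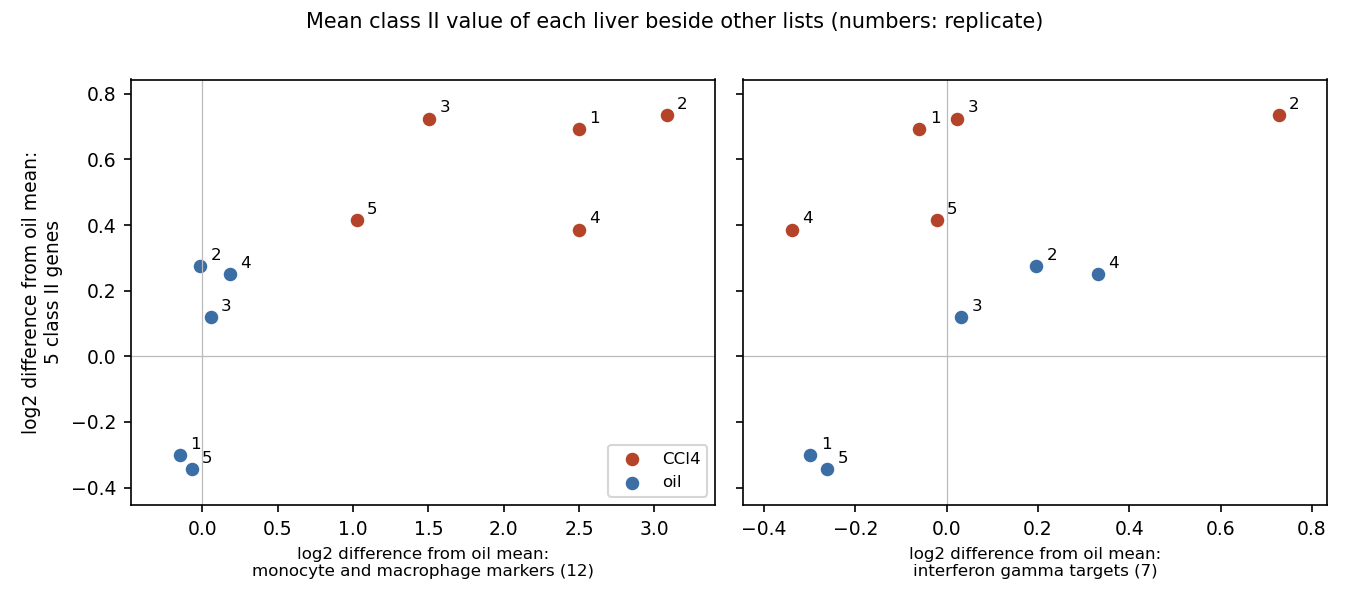
Mean class II value of each liver (vertical axis) beside the mean of 12 monocyte and macrophage markers (left) and of 7 interferon gamma targets (right), all as log2 differences from the oil mean, for CCl4 livers (red) and oil livers (blue) with replicate numbers. The horizontal scales differ, and CCl4 liver 4 is at 2.50 for macrophage markers and 0.39 for class II.

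The 8 genes nearest to the class II mean in this liver-to-liver pattern, of 14855 other genes, were Olfr1167 (r = 0.956), Coil (0.931), Olfr1450 (0.902), Dpcd (0.901), Mgat5b (0.896), Gfus (0.895), Tspan15 (0.895) and H2-Ea (0.888), over 10 arrays. H2-Ea was the class II chain among them. The other genes differed between the groups by -0.18 to 0.08, and 4 of them, the olfactory receptors Olfr1167 and Olfr1450 with Coil and Mgat5b, had oil means below the array medians.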

How the data were processed

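The authors deposited 1 log2 value for each of 23332 probe sets on each of 10 arrays (Trizol RNA, biotin label). Log2 is inferred from the range, whose maximum is 13.4. The series text names the Mouse Exon 1.0 ST array and the methods name Mouse Gene ST 1.0. GenePix is named for images, and background correction, normalization and summarisation are not given in the sources used here. Without detection calls, signal over background is unknown, and precision rests on 5 arrays a group.

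Gene names came from the platform annotation: 14996 probe sets had 1 symbol, 1019 several and 7317 none. Probe sets with several symbols named no gene, and the brightest probe set stood for a gene. Probes follow a reference genome, and the effect of Balb/c class II alleles was not tested. CCl4 was compared with oil by limma 3.58.1 in R 4.3.3 (lmFit, eBayes; p-values adjusted across the whole table by Benjamini-Hochberg) and by exact permutation tests (scipy 1.17.1). The fit was tested on simulated data. P-values measure the spread between these livers.

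The genes and lists were chosen with earlier results of these data known. The rule for naming took every measured class II gene, of each other list the genes past the threshold or otherwise up to 4 with the smallest p (a part of which is printed, with Ifi30 and Cd9 added outside the rule), and the 8 genes nearest in pattern. Promoters are RefSeq GRCm38.p6. Motifs were matched in the promoters on chromosome 17 of H2-Aa, H2-Oa, H2-DMa, H2-DMb1, H2-DMb2, H2-Ob and H2-Eb1, a part of which is described. Results were recomputed with a block for replicate number, with quantile normalization, centred medians, brighter probe sets, array weights, a clock covariate (Dbp minus Arntl), the methods' t-test and leaving out each array.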

Additional observations from a re-analysis of the deposited data

Results flagged for a closer look

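Single livers stood apart from the other 4 of their group by Dixon's test in 6 of 114 groups checked, over 57 genes, and chance alone would give 5.7. H2-DMa was highest in oil liver 2, at 2.38, with the next liver at 2.13. Gbp2 and Gbp3 were highest in CCl4 liver 2, at 3.54 and 4.22, with the next livers at 2.77 and 3.02. Tapbp and Ttr were lowest in CCl4 liver 4, at 6.80 and 12.4, with the next livers at 7.36 and 12.9. Lgals3 was highest in oil liver 4, at 4.18.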

How the results depend on the processing

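Under all 17 alternatives 0 class II genes passed at an adjusted p under 0.05 and 3 were higher at an unadjusted p under 0.05. The adjusted p ranged over 0.0650 to 0.238 for H2-Aa, 0.0735 to 0.273 for H2-Ab1 and 0.0600 to 0.257 for Cd74, with differences of 1.00 to 1.37, 0.54 to 0.71 and 0.86 to 1.15. The median difference was 1.03 among brighter probe sets, which drop H2-DMa and H2-Oa, and lay at 0.55 to 0.71 with 1 array left out. Under quantile normalization 1 gene instead of 2 had no overlap, and with 1 array left out 2 to 3 had none. H2-Oa changed sign with array quality weights (0.0020) and when CCl4 liver 4 (0.0039), oil liver 1 (0.021) or oil liver 3 (0.0075) was left out, and ranged from -0.069 to 0.021 with 1 array left out, within its error. Over the whole table, 147 probe sets were higher and 21 lower. The replicate block gave 30 and 6, quantile normalization 192 and 39, median centring 145 and 36, brighter probe sets 251 and 47, the clock covariate 45 and 9 and the methods' t-test 12 and 2. With 1 array left out, 30 to 259 were higher and 5 to 40 lower. Leaving out CCl4 liver 1, 4 or 5 gave 65, 79 or 259 higher, and leaving out oil livers 1 to 5 gave 37, 40, 30, 85 and 30. The cause was not tested. Whether replicate numbers pair the livers was not settled, since 5 pairs are too few to decide it. Deviations of same-numbered livers correlated at -0.04 to 0.16, with 1 of 5 pairs over 0.1. Livers of different number and group correlated at -0.20 to 0.11, and 3 of 10 arrays correlated best with their own number. Of the 8 named pathway and marker genes past the threshold, Gpnmb kept its call under all 17 alternatives. Ctss kept its call under all but the methods' t-test (adjusted p 0.0907) and the leave-outs given above. The other 6 lost theirs with the replicate block (limma adjusted p 0.0862 to 0.116) and with the clock covariate (0.0621 to 0.0947). They also lost them with the methods' t-test (adjusted p 0.112 to 0.142). Cd83 was lost with centred medians too (limma adjusted p 0.0529), and Ctsd with array weights (0.0510). Averaging several probe sets of a gene was not run, because each measured class II gene had 1.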

Other observations

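Probe sets shared by a class II gene and another symbol are given as values of the probe set and not of either gene. The probe set of H2-Eb1 and H2-Eb2 had 4.91, 5.22, 5.51, 4.98 and 5.12 in CCl4 livers, against 3.97, 5.19, 4.22, 4.53 and 3.17 in oil livers (difference 0.93, SE 0.31, limma adjusted p 0.250). Oil livers 5 and 1 were again the lowest, and oil liver 2 overlapped the CCl4 livers. The probe set of H2-DMb2 and H2-DMb1 had 3.92, 3.12, 3.30, 3.21 and 3.01 in CCl4 livers, against 2.63, 3.12, 2.22, 3.24 and 2.47 in oil livers (difference 0.58, SE 0.23, limma adjusted p 0.357), and the groups overlapped. The probe set of Ciita and EG669998 had 2.33, 2.49, 2.56, 2.23 and 2.43 in CCl4 livers, against 2.28, 2.39, 2.39, 2.45 and 2.35 in oil livers. The difference was 0.04 (SE 0.08, limma adjusted p 0.926), and both group means lay below the medians of the arrays.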
